A study of Mus musculus with 4 samples.

Results

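The genes described here encode subunits of the receptors for glutamate and GABA, 33 genes of which 28 were matched to array probes in whole-brain RNA of SAMP8 and SAMR1 mice. A probe was assigned to a gene where the transcript accession deposited with it belongs to that gene in the RefSeq gene table, and every such probe was kept whatever its value. This gave 43 of the 41174 distinct probes on the array, with 1 probe for 18 genes and 2 to 5 probes for the other 10 genes. All 4 listed AMPA receptor genes were matched, with 5 of 6 NMDA, 4 of 5 kainate, 4 of 6 metabotropic glutamate, 10 of 10 GABA-A and 1 of 2 GABA-B receptor genes. Grin3a, Grik3, Grm2, Grm5 and Gabbr2 were not matched and were not analysed here.

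SAMP8 is a mouse line selected for early ageing with poor learning and memory, and SAMR1 is its companion line with more usual ageing. The labels give both lines an AKR/J background with a suspected cross to another, unknown line. The 3 whole-brain RNAs represent SAMP8 mice fed a whale meat extract (WME) diet, SAMP8 mice fed the low-safflower oil (LSO) control diet and SAMR1 mice fed the same LSO diet. All mice ate CE-2 chow until 24 weeks of age, then their experimental diet for 26 weeks, went through 8 days of behavioural tests from 49 weeks and were killed at 50 weeks. SAMR1 mice were not given WME, so an effect of WME in that line cannot be read here. Arrays 1 and 2 of the diet pair carried SAMP8 WME RNA against SAMP8 LSO RNA with the dyes exchanged, and arrays 1 and 2 of the strain pair carried SAMP8 LSO RNA against SAMR1 LSO RNA in the same way. The sources used here do not say how many mice each RNA was drawn from. With 1 RNA per group, the 2 arrays of a pair repeat the labelling and hybridisation and not the animals, so no test between groups could be made.

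Glutamate excites most neurons of the brain through AMPA, NMDA and kainate receptors, which are ion channels built as tetramers of subunits, and through metabotropic receptors, which act through G proteins. GABA inhibits neurons through GABA-A receptors, which are chloride channels built as pentamers, and through the G-protein-coupled GABA-B receptor. Which subunit genes a neuron uses sets how fast a channel opens, whether it passes calcium and where on the cell it sits, and the mix differs by region: Gabra6, Grin2c, Gabrd and Grm4 are known as abundant in granule cells of the cerebellum.

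The promoters of Gabra6, Grin2c and Gria4 are shown because these members had the 3 lowest log2 ratios of the members in the diet pair. Each run holds 250 bases before and 50 bases after the gene start from RefSeq's GRCm38.p6 assembly, on the minus strand: Gabra6 at chr11:42321023-42321322, Grin2c at chr11:115267194-115267493 and Gria4 at chr9:4796185-4796484. Capitals mark matches on either strand. The motifs searched were one arm of the site that nuclear factor I binds, with the letters TTGGC. The GC box that Sp1 and its relatives recognise was searched as the letters GGGCGG. The TATA box upstream of some gene starts was searched as the letters TATAAA.
Gabra6: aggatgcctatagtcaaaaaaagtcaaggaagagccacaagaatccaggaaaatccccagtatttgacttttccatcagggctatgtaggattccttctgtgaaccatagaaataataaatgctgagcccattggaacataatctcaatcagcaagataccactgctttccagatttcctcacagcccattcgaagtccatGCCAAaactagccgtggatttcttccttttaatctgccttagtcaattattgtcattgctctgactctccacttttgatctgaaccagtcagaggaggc
Grin2c: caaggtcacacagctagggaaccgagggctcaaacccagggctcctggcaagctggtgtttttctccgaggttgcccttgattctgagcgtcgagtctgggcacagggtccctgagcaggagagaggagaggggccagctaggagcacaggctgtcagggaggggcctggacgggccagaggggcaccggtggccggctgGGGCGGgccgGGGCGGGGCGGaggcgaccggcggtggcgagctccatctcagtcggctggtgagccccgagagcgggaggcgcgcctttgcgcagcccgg
Gria4: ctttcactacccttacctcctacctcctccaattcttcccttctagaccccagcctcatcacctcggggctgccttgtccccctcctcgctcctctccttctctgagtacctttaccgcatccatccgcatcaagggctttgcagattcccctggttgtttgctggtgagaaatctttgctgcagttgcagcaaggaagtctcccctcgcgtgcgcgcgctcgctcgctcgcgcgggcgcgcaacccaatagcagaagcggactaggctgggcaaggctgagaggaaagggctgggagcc
The Gabra6 run held 1 match to the nuclear factor I arm, which lies on the other strand and is printed as its complement, and had a GC content of 42%. The Grin2c run held 3 GC boxes, 2 of which share a base, and had a GC content of 70%. The Gria4 run held none of these letters and had a GC content of 59.7%. So the 3 promoters shared none of the motifs searched. Over all 32851 promoters in the table, 46.7% held the nuclear factor I arm, 35.7% a GC box and 13.6% a TATA box. Of the 31 promoters of 24 listed receptor genes in that table, 41.9% held the nuclear factor I arm, 51.6% a GC box and 9.68% a TATA box. A match of letters is a description and not a bound site.

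Ratios are given on the log2 scale with the sign turned for the dye, so that a positive value means more signal in SAMP8 WME than in SAMP8 LSO in the diet pair, and in SAMP8 LSO than in SAMR1 LSO in the strain pair. All 43 probes were well above background in both RNAs on both arrays of each pair, and none was saturated or marked as an outlier. Both pairs use the SAMP8 LSO RNA, on separate arrays whose ratios were normalized apart, so their values are given side by side and not correlated. That RNA is the denominator of the diet ratio and the numerator of the strain ratio. A feature of that 1 RNA would give opposite signs in the pairs, so opposite signs do not show that WME reversed a strain difference. Across the arrays, 81.4% to 85.6% of spots were well above background and median spot signals were 275 to 357 units, against local backgrounds of 65 to 75.5. An ageing-brain RNA should hold neuronal and glial transcripts, and all 10 pan-neuronal, 9 astrocyte and 10 oligodendrocyte-lineage marker genes were measured in both pairs. Much of the spread between dye orientations was carried by the dyes: over all genes the turned ratios of the 2 diet arrays had a Pearson correlation of −0.27, and those of the 2 strain arrays 0.57, over 26669 and 26946 genes, which share the arrays and dyes and are not independent replicates. The mean of both orientations cancels such a preference. The dye preference of a probe should be the same in both pairs, and its difference between the pairs put the technical SD of a mean ratio at 0.049 over the 43 member probes and at 0.049 over 26398 genes. The ± of a gene below is the SD of its 2 dye orientations, which also holds its dye preference. A small ± therefore does not mark a more precise mean.

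No receptor gene differed by 1.5-fold on both arrays of either pair. Of the 28 members in the diet pair, 0 were at least 1.5-fold higher and 0 at least 1.5-fold lower on both arrays, where 0.0562% and 0.03% of all 26669 measured genes were. At 1.2-fold, 0 members were higher and 0 lower in the diet pair, where 0.172% and 0.109% of all genes were. The strain pair likewise had 0 members at least 1.5-fold higher and 0 at least 1.5-fold lower, beside 0.969% and 0.494% of 26946 genes. At 1.2-fold, 1 member, the AMPA receptor gene Gria4, was higher in SAMP8 LSO than in SAMR1 LSO and 0 were lower, where 2.81% and 1.71% of all genes were.

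The members' median log2 ratio was 0.018 in the diet pair, beside 0.0038 over all genes, and −0.012 in the strain pair, beside −0.0067 over all genes. On the diet arrays 8 members (28.6%) were above 0 on both arrays, 5 (17.9%) were below 0 on both and 15 (53.6%) changed sign with the dye. The shares of all genes were 20.5%, 17.6% and 61.8%. The counts in the strain pair were 8 (28.6%), 4 (14.3%) and 16 (57.1%), beside 23.9%, 26.7% and 49.4% of all genes. The members' mean ratios had an SD of 0.10 in the diet pair, beside 0.083 over all genes, and of 0.12 in the strain pair, beside 0.20 over all genes. Within the diet pair 20 of 28 members lay within 0.1 of 0, beside 88.0% of all genes, and in the strain pair 18 of 28 did, beside 70.2% of all genes. By both measures the members were spread wider than all genes in the diet pair, while in the strain pair their SD was the smaller and their share within 0.1 of 0 also the smaller. All genes include dim probes, whose ratios the background correction pulls towards 0, and no comparison at matched intensity was made. The 3 lowest members of the diet pair, Gria4, Gabra6 and Grin2c at −0.24, −0.23 and −0.23, were at −0.062, −0.036 and −0.037 when each array was centred on its median without loess, a setting that moved the members' median to 0.15. In whole-brain RNA, fewer cells of a type and less RNA per cell cannot be told apart.

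**Figure D1:**
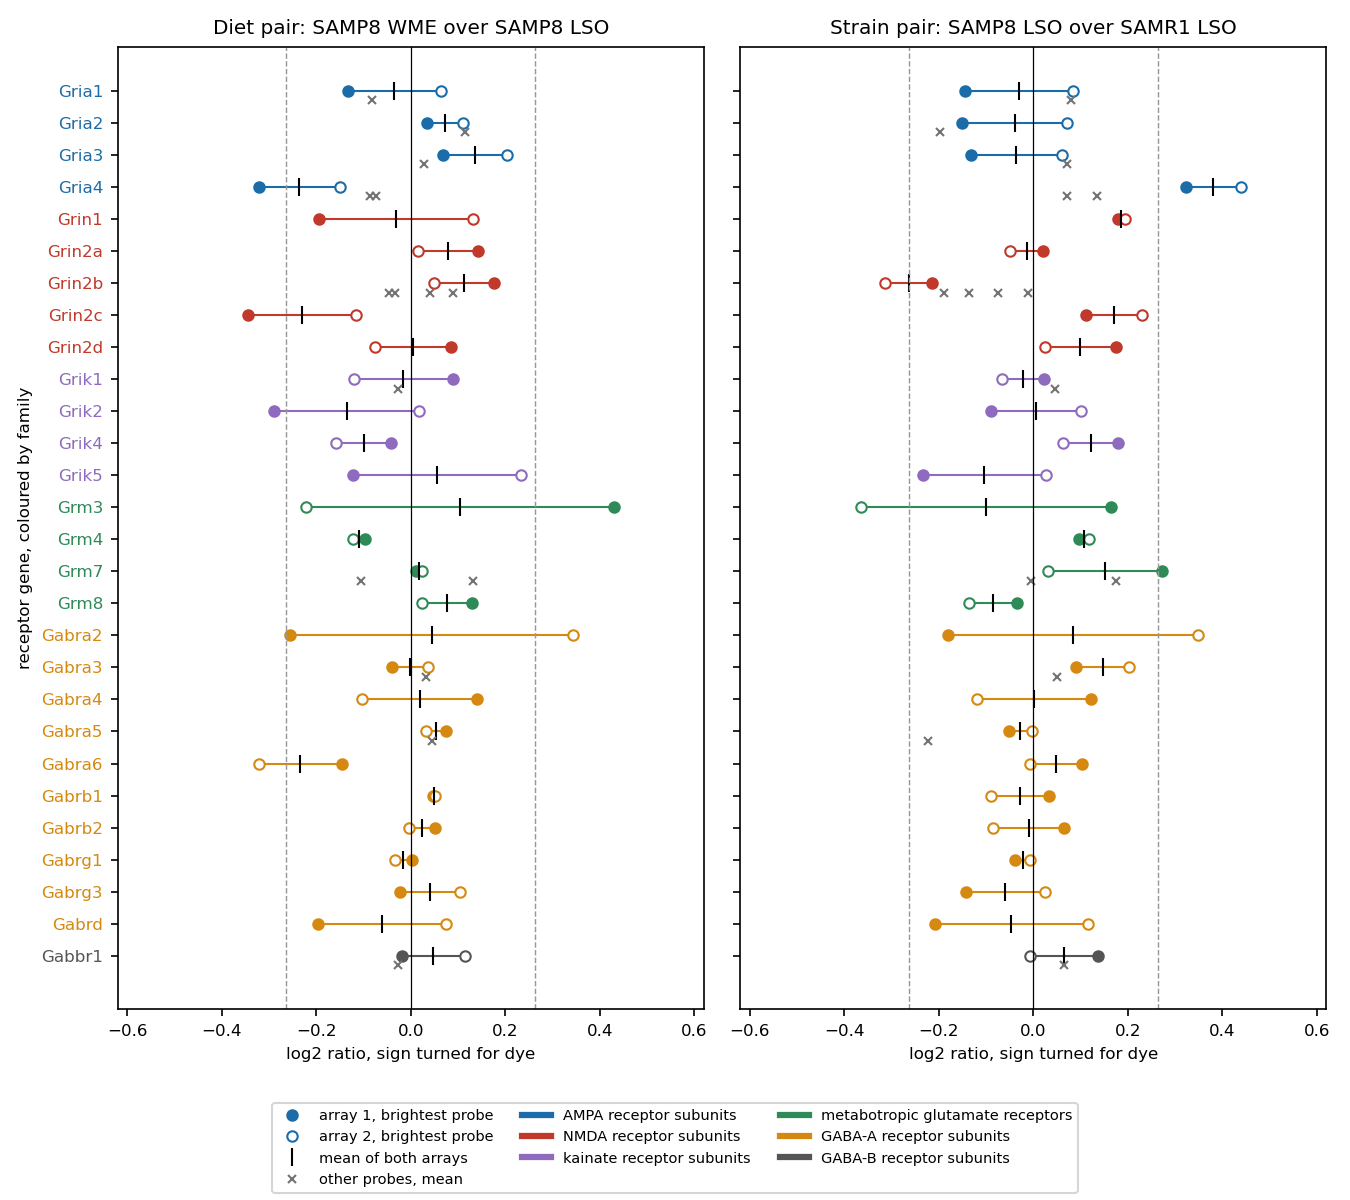
Log2 ratio of each matched receptor gene (rows, coloured by family) in the diet pair (left, SAMP8 WME over SAMP8 LSO) and the strain pair (right, SAMP8 LSO over SAMR1 LSO), with filled and open circles for array 1 and array 2 of the brightest probe, a bar for their mean, crosses for the means of other probes and dashed lines at 1.2-fold. Gria4, Grin2c and Gabra6 lie farthest left in the diet pair, at −0.24, −0.23 and −0.23, and in the strain pair only Gria4, at 0.38, has both arrays past 1.2-fold.

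AMPA receptors carry most fast excitatory transmission. Gria4 encodes the subunit of the fastest-gating AMPA receptors, found in cerebellum, brainstem and fast-spiking interneurons. Its brightest probe had normalized intensities of 3230.3 and 3614 in SAMP8 WME RNA on arrays 1 and 2, against 4033 and 4011 in SAMP8 LSO RNA. Both SAMP8 WME values lay below both SAMP8 LSO values. For this gene and those below, the values of a group repeat the same RNA, and the share of all genes separated in this way was not counted. Such separation is not particular to the genes where it is stated. Grik4 and Grm4, among others, were separated alike in the diet pair. The log2 ratios were −0.32 and −0.15, a mean of −0.24 ± 0.12 (SD of 2 dye orientations) or 1.18-fold with SAMP8 LSO the brighter RNA, which did not pass 1.2-fold on both arrays. The value was the 90th from the lowest of 26669 genes. Its other probes were nearer 0, at −0.073 ± 0.27 and −0.086 ± 0.013. On the strain arrays the brightest probe had 4227 and 4320.1 in SAMP8 LSO RNA on arrays 1 and 2, against 3378 and 3188 in SAMR1 LSO RNA. Here the SAMP8 LSO values lay above both SAMR1 LSO values. The log2 ratios were 0.32 and 0.44, a mean of 0.38 ± 0.081 or 1.30-fold higher in SAMP8 LSO, and this was the one member past 1.2-fold. The other 2 Gria4 probes were at 0.071 ± 0.24 and 0.13 ± 0.00087, both positive and both short of 1.2-fold. The median over the 3 probes on each array, averaged over the arrays, was 0.19 and did not pass 1.2-fold either. So the size of the Gria4 difference rests on 1 of its 3 probes in each pair, while all 3 had the same sign within a pair.

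Gria1, Gria2 and Gria3 encode the subunits that make up most forebrain AMPA receptors, and the Gria2 subunit keeps the channel closed to calcium. Gria1 had 33101 and 34870.1 in SAMP8 WME RNA on arrays 1 and 2, against 36292 and 33381 in SAMP8 LSO RNA, a ratio of −0.035 ± 0.14 with its second probe at −0.081 ± 0.33. The groups overlapped. Its strain means were −0.030 ± 0.16 and 0.079 ± 0.13, with opposite signs. Gria2 had 0.033 and 0.11 on the diet arrays, a mean of 0.072 ± 0.054, and its second probe was at 0.11 ± 0.069. Its strain ratios were −0.039 ± 0.16 on the brightest probe and −0.20 ± 0.073 on the other, with −0.15 and −0.25 on the 2 arrays. Gria3 had the highest mean of the members in the diet pair. Its intensities were 4692 and 4897 in SAMP8 WME RNA on arrays 1 and 2, against 4472 and 4250.2 in SAMP8 LSO RNA, with every SAMP8 WME value above every SAMP8 LSO value. Its diet ratios were 0.069 and 0.20, a mean of 0.14 ± 0.096, with the second probe at 0.027 ± 0.12. The Gria3 probes in the strain pair were at −0.036 ± 0.14 and 0.071 ± 0.037. None of these genes passed 1.2-fold on any probe.

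**Figure D2:**
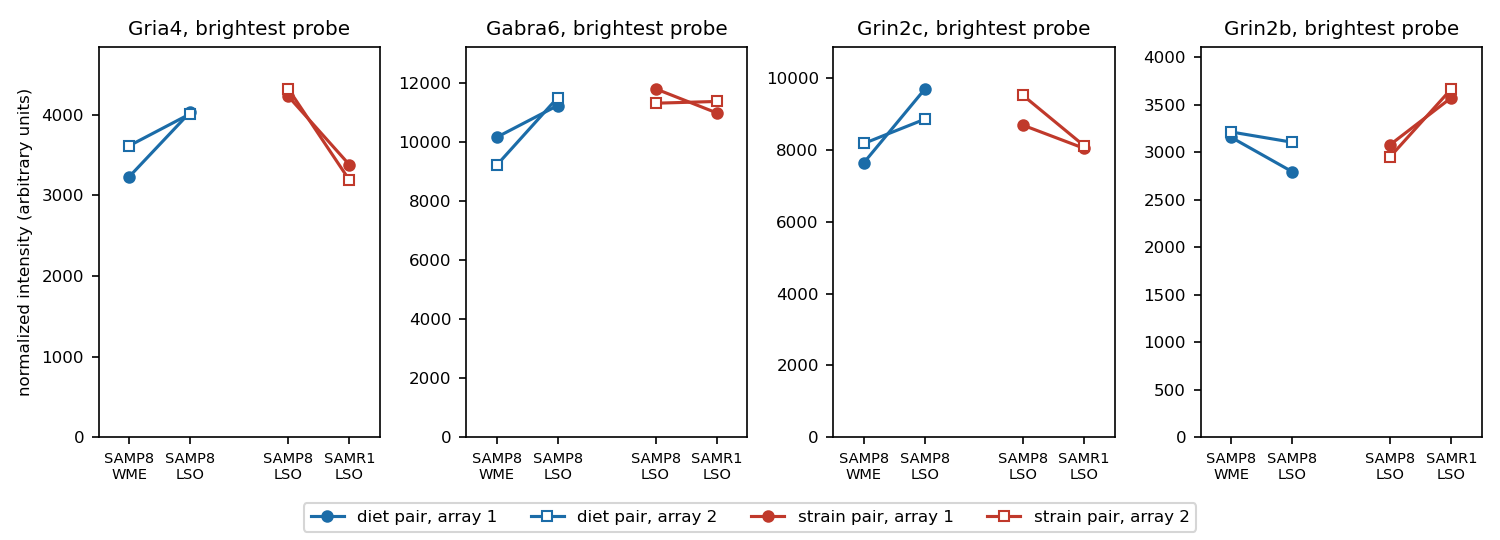
Normalized intensity (arbitrary units, axis from 0) of the brightest probe of Gria4, Gabra6, Grin2c and Grin2b, with each line joining the 2 RNAs on 1 array, in blue for the diet pair (SAMP8 WME left, SAMP8 LSO right) and in red for the strain pair (SAMP8 LSO left, SAMR1 LSO right). Gria4, Gabra6 and Grin2c lie lower in SAMP8 WME on both diet arrays, and on both strain arrays Gria4 lies higher and Grin2b lower in SAMP8 LSO.

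NMDA receptors pass calcium when glutamate binds while the cell is depolarised. Grin1 encodes the subunit that every NMDA receptor needs. Grin1 on the strain arrays had 1553 and 1968 in SAMP8 LSO RNA on arrays 1 and 2, against 1372 and 1720.4 in SAMR1 LSO RNA. The array 2 signals were brighter in both RNAs, and within each array SAMP8 LSO was the brighter RNA. The ratios were 0.18 and 0.19, a mean of 0.19 ± 0.011 or 1.14-fold, the second highest of the members and short of 1.2-fold on both arrays. Its diet ratios had opposite signs, −0.19 and 0.13, with a mean of −0.031 ± 0.23. Grin2a and Grin2b encode the main partners of Grin1 in forebrain neurons, Grin2b being the more prominent early in life. Grin2a was at 0.078 ± 0.090 in the diet pair, above 0 on both arrays, and at −0.014 ± 0.050 in the strain pair.

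Grin2b, with 5 probes, had the lowest ratio of the members in the strain pair. Its brightest probe had 3080.0 and 2953 in SAMP8 LSO RNA on arrays 1 and 2, against 3575 and 3668 in SAMR1 LSO RNA. Both SAMP8 LSO values lay below both SAMR1 LSO values. The ratios were −0.21 and −0.31, a mean of −0.26 ± 0.069, and array 1 was short of 1.2-fold. The other 4 probes had means of −0.14, −0.012, −0.19 and −0.074, so all 5 means were negative. The median over the probes on each array, averaged over the arrays, was −0.10. The brightest probe in the diet pair was at 0.11 ± 0.090, above 0 on both arrays, while the others were at 0.042, −0.032, 0.089 and −0.045. Their signs differed in the diet pair, and taking the median of the 5 probes on each array and averaging the arrays gave −0.023.

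Grin2c encodes the subunit that replaces Grin2b in maturing cerebellar granule cells. It had 7651 and 8186 in SAMP8 WME RNA on arrays 1 and 2, against 9708 and 8865 in SAMP8 LSO RNA. Both SAMP8 WME values lay below both SAMP8 LSO values. The ratios were −0.34 and −0.11, a mean of −0.23 ± 0.16, the 100th from the lowest of 26669 genes, and array 2 did not pass 1.2-fold. On the strain arrays Grin2c had 8695 and 9527 in SAMP8 LSO RNA on arrays 1 and 2, against 8049 and 8122 in SAMR1 LSO RNA, and ratios of 0.11 and 0.23 with a mean of 0.17 ± 0.084. Grin2d, a subunit of slowly closing receptors in brainstem and interneurons, was at 0.0048 ± 0.11 in the diet pair and at 0.10 ± 0.11 in the strain pair, positive on both strain arrays.

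Kainate receptors modulate transmitter release and excitability. Grik1 and Grik2 encode subunits that can form channels on their own, and Grik4 and Grik5 encode high-affinity subunits that need such a partner. Grik2 had 594 and 684 in SAMP8 WME RNA on arrays 1 and 2, against 726 and 675 in SAMP8 LSO RNA. Its sign changed with the dye, with array values of −0.29 and 0.018 and a mean of −0.14 ± 0.22, and in the strain pair it was at 0.0053 ± 0.13. Grik4 was the one kainate gene below 0 on both diet arrays. It had 4597 and 4371 in SAMP8 WME RNA on arrays 1 and 2, against 4730.3 and 4874 in SAMP8 LSO RNA, and ratios of −0.041 and −0.16 with a mean of −0.099 ± 0.082, although centring each array on its median without loess turned this to 0.080. Its strain ratios were 0.18 and 0.064, a mean of 0.12 ± 0.082. Grik5 changed sign with the dye in both pairs, with means of 0.055 ± 0.25 in the diet pair and −0.10 ± 0.18 in the strain pair. The 2 Grik1 probes were at −0.016 and −0.026 in the diet pair and at −0.022 and 0.046 in the strain pair, each within 0.1 of 0.

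Metabotropic glutamate receptors act through G proteins. Grm4, Grm7 and Grm8 encode receptors that sit mainly on axon terminals and reduce release, with Grm4 on the axons of granule cells, and Grm3 encodes a receptor of neurons and astrocytes. Grm4 had 258 and 257 in SAMP8 WME RNA on arrays 1 and 2, against 276 and 279.7 in SAMP8 LSO RNA. The ratios of −0.096 and −0.12 differed little between the dyes, with a mean of −0.11 ± 0.018. On the strain arrays Grm4 had 263 and 263 in SAMP8 LSO RNA on arrays 1 and 2, against 246 and 242 in SAMR1 LSO RNA, and ratios of 0.096 and 0.12 with a mean of 0.11 ± 0.015. No array passed 1.2-fold, and with Feature Extraction's processed signals the means were −0.21 in the diet pair and 0.071 in the strain pair. Grm7 had 3 probes, at 0.017 ± 0.010, −0.10 ± 0.24 and 0.13 ± 0.081 in the diet pair and at 0.15 ± 0.17, 0.18 ± 0.022 and −0.0051 ± 0.011 in the strain pair. Its second probe was above 0.1 on both strain arrays (0.16 and 0.19) and the remaining one lay near 0. Grm8 was at 0.076 ± 0.074 in the diet pair, above 0 on both arrays, and at −0.084 ± 0.072 in the strain pair, below 0 on both.

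Grm3 followed the dye. It had 2299.9 and 1855 in SAMP8 WME RNA on arrays 1 and 2, against 1708 and 2162 in SAMP8 LSO RNA, so that SAMP8 WME was the brighter RNA on array 1 and the dimmer on array 2. The ratios were 0.43 and −0.22 in the diet pair and 0.16 and −0.37 in the strain pair, with means of 0.10 ± 0.46 and −0.10 ± 0.37. Before the sign is turned, red exceeded green by a log2 value of 0.32 in the diet pair and 0.27 in the strain pair. Gabra2 showed the reverse preference, with red minus green at −0.30 in the diet pair and −0.26 in the strain pair. For both genes the SD between orientations was larger than the mean ratio, so the dye orientation set the sign on each array.

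**Figure D3:**
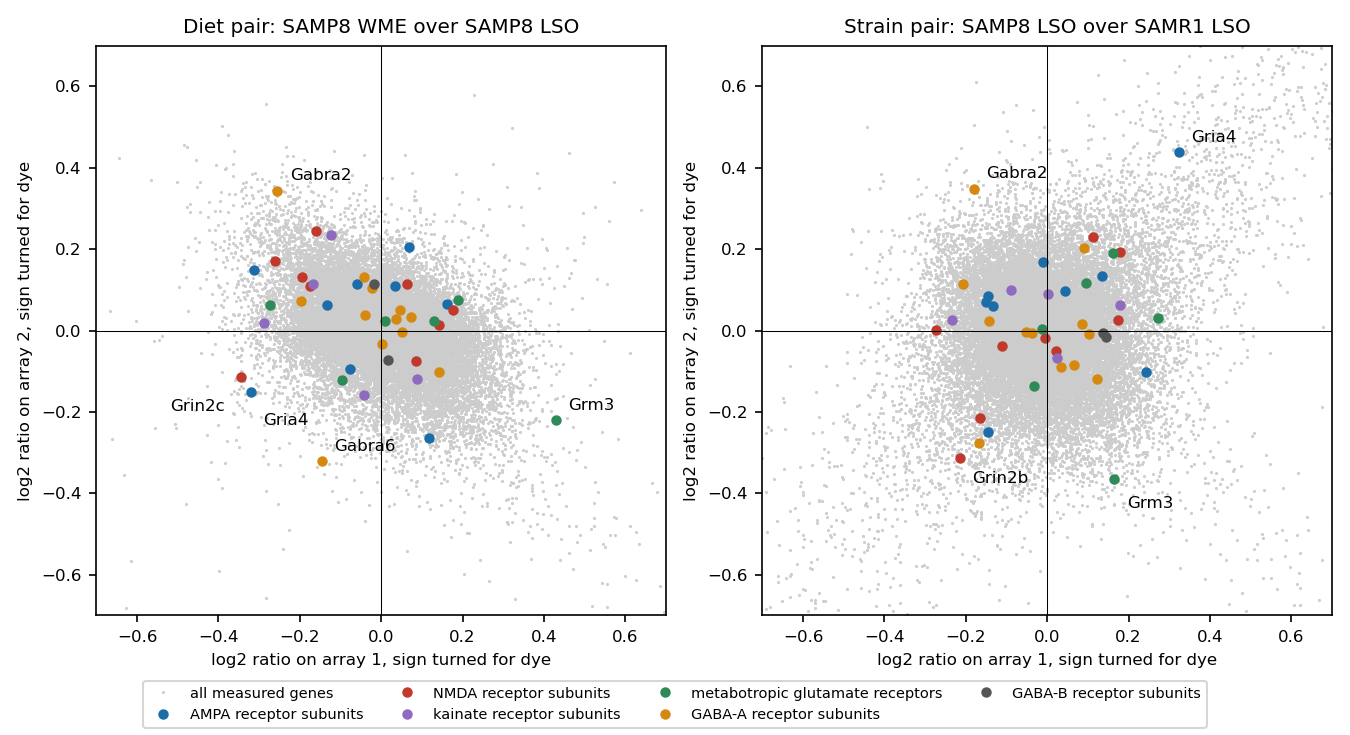
Log2 ratio on array 1 (horizontal) against array 2 (vertical), sign turned for the dye, for every probe of the receptor genes (coloured by family) and for all measured genes (grey) within ±0.7, in the diet pair (left) and the strain pair (right). The labelled points of Gria4, Grin2c and Gabra6, their brightest probes, lie in the lower left of the diet pair, below 0 on both arrays, while Gabra2 and Grm3 lie where the sign changes with the dye in both pairs.

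GABA-A receptors combine alpha, beta and gamma or delta subunits. Gabra6 encodes an alpha subunit found almost only in cerebellar granule cells. It had 10147 and 9199 in SAMP8 WME RNA on arrays 1 and 2, against 11224 and 11494 in SAMP8 LSO RNA. Both SAMP8 WME values lay below both SAMP8 LSO values. The ratios were −0.15 and −0.32, a mean of −0.23 ± 0.12 or 1.18-fold with SAMP8 LSO the brighter RNA, the 93rd from the lowest of 26669 genes, and array 1 did not pass 1.2-fold. On the strain arrays it had 11789 and 11302 in SAMP8 LSO RNA on arrays 1 and 2, against 10973 and 11361 in SAMR1 LSO RNA, with overlapping groups, and ratios of 0.10 and −0.0076 with a mean of 0.048 ± 0.079. Gabrd encodes the delta subunit of receptors outside synapses, used by granule cells of the cerebellum and the dentate gyrus. It had 13469 and 15069.8 in SAMP8 WME RNA on arrays 1 and 2, against 15438 and 14318 in SAMP8 LSO RNA, and its ratios of −0.20 and 0.074 changed sign with the dye, with a mean of −0.062 ± 0.19. Gabrd in the strain pair was at −0.046 ± 0.23, again with opposite signs.

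The other alpha genes gave small ratios. Gabra2 and Gabra3, which encode alpha subunits of synaptic receptors, were at 0.044 ± 0.42 and −0.0012 ± 0.055 in the diet pair and at 0.084 ± 0.37 and 0.15 ± 0.080 in the strain pair. Gabra3 had 2871 and 2769.8 in SAMP8 LSO RNA on arrays 1 and 2, against 2697 and 2406 in SAMR1 LSO RNA, with ratios of 0.090 and 0.20, and its second probe was at 0.051 ± 0.048. Gabra4, whose product pairs with delta in thalamus and hippocampus, was at 0.019 ± 0.17 and 0.0022 ± 0.17 in the diet and strain pairs. Gabra5, the alpha subunit of receptors outside synapses in the hippocampus, was at 0.053 ± 0.030 and 0.044 ± 0.12 on its 2 probes in the diet pair. Its probes differed in the strain pair, at −0.027 ± 0.035 and −0.22 ± 0.077, the second having 1036 and 1133 in SAMP8 LSO RNA on arrays 1 and 2, against 1164 and 1372 in SAMR1 LSO RNA. The second probe was thus the lowest GABA-A probe in the strain pair, below 0 on both arrays.

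The beta and gamma genes lay near 0 in both pairs. Gabrb1 and Gabrb2, which encode subunits that help form the GABA site, were at 0.048 ± 0.0031 and 0.024 ± 0.038 in the diet pair and at −0.028 ± 0.086 and −0.0098 ± 0.11 in the strain pair. Gabrg1 and Gabrg3, which encode gamma subunits, were at −0.016 ± 0.026 and 0.041 ± 0.090 in the diet pair and at −0.022 ± 0.022 and −0.059 ± 0.12 in the strain pair. Gabbr1 encodes the GABA-binding subunit of the GABA-B receptor. Its 2 probes were at 0.048 ± 0.094 and −0.028 ± 0.064 in the diet pair and at 0.065 ± 0.10 and 0.064 ± 0.11 in the strain pair, with a sign that changed with the dye on each.

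Set side by side, the receptor families did not separate by more than their members' own spread. In the diet pair the median log2 ratio was 0.019 over the AMPA genes (range −0.24 to 0.14), 0.0048 over the NMDA genes (−0.23 to 0.11), −0.058 over the kainate genes (−0.14 to 0.055), 0.047 over the metabotropic genes (−0.11 to 0.10) and 0.022 over the GABA-A genes (−0.23 to 0.053). The single GABA-B gene was at 0.048. The lowest member of the AMPA, NMDA and GABA-A families was in each case one of the 3 genes near −0.23, and the remaining members of those families lay between −0.062 and 0.14. For the strain pair the medians were −0.033 over the AMPA genes (−0.039 to 0.38), 0.10 over the NMDA genes (−0.26 to 0.19), −0.0081 over the kainate genes (−0.10 to 0.12), 0.011 over the metabotropic genes (−0.10 to 0.15), −0.016 over the GABA-A genes (−0.059 to 0.15) and 0.065 for the GABA-B gene. The NMDA genes thus held both the lowest member, Grin2b, and the next highest after Gria4, Grin1. Centring each array on its median without loess moved the diet medians to 0.24, 0.15, 0.073, 0.16 and 0.16 for the AMPA, NMDA, kainate, metabotropic and GABA-A genes, turning the sign of the kainate median, while the median of all genes moved to 0.066.

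**Figure D4:**
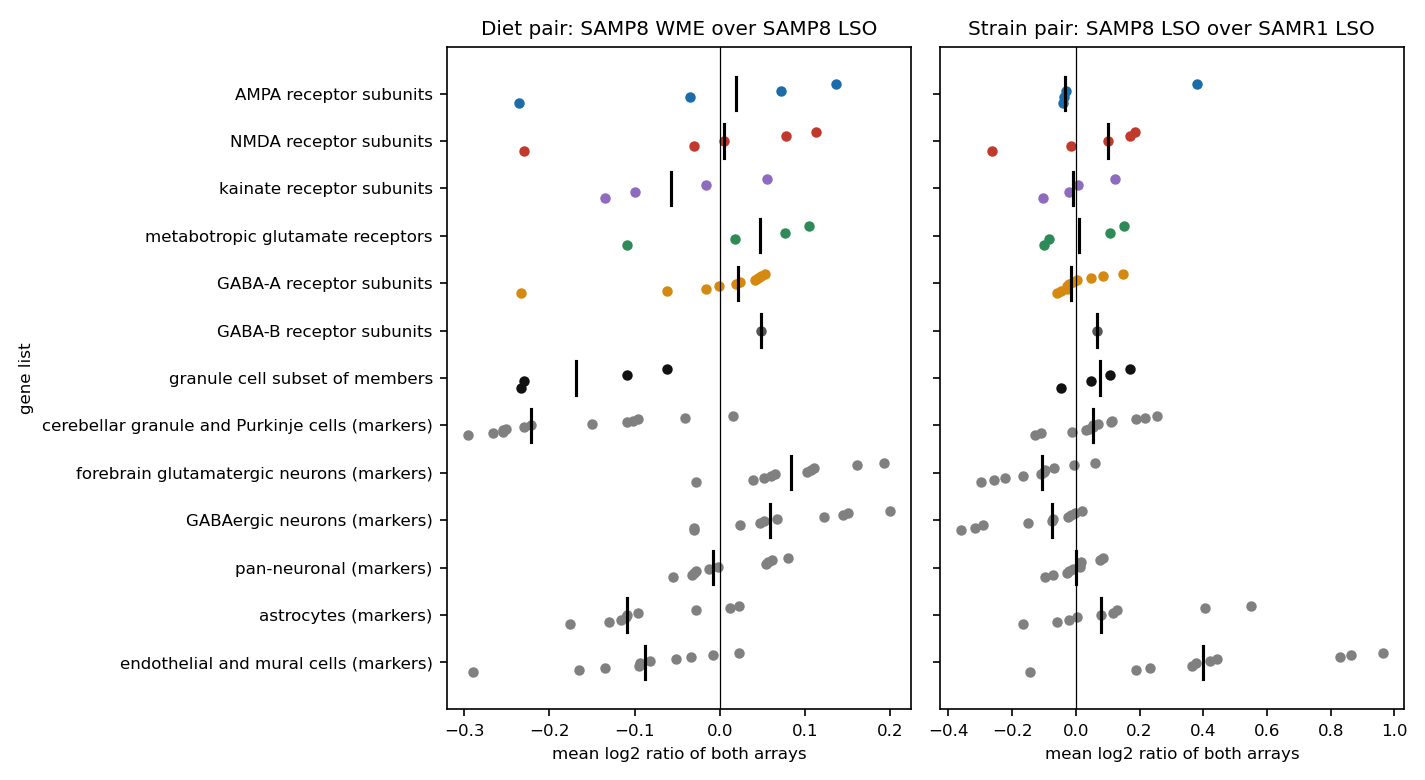
Mean log2 ratio of both arrays for each gene (points) and the median (bars) of each receptor family, of the members known from cerebellar granule cells and of marker lists of brain cell types (rows), in the diet pair (left) and the strain pair (right). In the diet pair the granule cell members, with a median of −0.17, and the cerebellar markers, with a median of −0.22, lie left of the receptor families; centring without loess moves these medians to −0.037 and −0.0056, with the members' median at 0.15.

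The 4 members known from cerebellar granule cells, Gabra6, Grin2c, Grm4 and Gabrd, had a median of −0.17 in the diet pair, and 3 of the 4 were below 0 on both arrays. The other 24 members had a median of 0.033, with 8 above 0 and 2 below 0 on both arrays. The list was written with earlier results of these data known and carries no test. Of 13 marker genes of cerebellar granule and Purkinje cells, 11 were below 0 on both diet arrays, with a range of −0.29 to 0.016, a median of −0.22 and 0 past 1.2-fold on both arrays. Cbln1, a synapse organiser made by granule cells, was at −0.29 ± 0.08, and En2, a cerebellar homeobox gene, at −0.27 ± 0.13. All 13 were detected, so none of the defining markers was at background. The part of the cerebellar markers in the ratios of Gabra6, Grin2c, Gria4 and Grm4 was not tested. The granule cell members in the strain pair had a median of 0.077, with 2 of 4 above 0 on both arrays, and the cerebellar markers a median of 0.053, with 8 above and 1 below 0 on both arrays and a range of −0.13 to 0.26. Under centring without loess the granule cell members and the cerebellar markers had diet medians of −0.037 and −0.0056. Then 1 of these 4 members was below 0 on both diet arrays and 1 above, and of 13 markers 3 were below and 2 above. Below the median of all genes, 0.066, lay 3 of 4 members and 10 of 13 markers. Below the members' median of 0.15 lay all 4 members and 11 of 13 markers.

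Other marker lists had medians on either side of 0. In the diet pair the medians were 0.083 for forebrain glutamatergic neurons, 0.059 for GABAergic neurons, −0.11 for astrocytes, −0.088 for endothelial and mural cells and −0.0078 for pan-neuronal genes. They were −0.11, −0.074, 0.078, 0.40 and 0.0014 for these lists in the strain pair, in the same order. Centring without loess moved their diet medians to 0.25, 0.22, 0.11, 0.033 and 0.21, with the median of all genes at 0.066. Hippocampal, striatal, oligodendrocyte-lineage, microglial and choroid plexus lists had medians of 0.045, −0.0091, −0.031, 0.091 and 0.078 in the diet pair and of −0.025, 0.084, 0.11, 0.073 and −0.18 in the strain pair. All 10 oligodendrocyte-lineage genes changed sign with the dye in the diet pair. Of 9 microglial genes, 4 were above and 4 below 0 on both strain arrays. The hippocampal genes ranged from −0.089 to 1.17 in the strain pair. The 10 immediate early genes, which neurons switch on with activity, had a median of −0.49 in the diet pair and 0.63 in the strain pair, all 10 on the same side of 0 on both arrays of each pair. Their part in the receptor ratios was not tested.

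The rest of the glutamate and GABA system showed values of the same small size. Over the 7 lists of such genes 0 passed 1.2-fold on both arrays in the diet pair, where 0.172% of all genes were higher and 0.109% lower. In the strain pair 1 was higher, Slc6a13, and 0 were lower, where 2.81% and 1.71% of all genes were. Of 10 measured genes for other receptor subunits, 0 passed 1.2-fold in the diet pair. The lowest were Gabrq, a theta subunit gene of GABA-A receptors, at −0.16 ± 0.10, and Grin3b, a glycine-binding NMDA subunit gene, at −0.15 ± 0.03. Of 11 in the strain pair 0 passed, with Gabrq at 0.11 ± 0.06. The 8 measured auxiliary subunit genes had a median of 0.086 in the diet pair and −0.076 in the strain pair. Among them Cacng3, which helps carry AMPA receptors to the membrane, was at 0.19 ± 0.11 in the diet pair and −0.11 ± 0.06 in the strain pair. Cnih2, a cornichon that slows AMPA receptors, was at 0.11 ± 0.04 in the diet pair, and Cacng2, stargazin, at −0.10 ± 0.13 in the strain pair.

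The medians of the scaffold lists lay near 0 too, while single genes lay farther out. The 11 measured scaffold genes of glutamate synapses had medians of 0.023 in the diet pair and −0.055 in the strain pair, and 0 passed 1.2-fold in either. Homer1, which links metabotropic receptors to calcium stores, was at 0.23 ± 0.22 and Homer3, its relative in Purkinje cells, at −0.078 ± 0.049 in the diet pair. The SD over all genes in that pair was 0.083. Grip1, an AMPA receptor binding scaffold, was at −0.14 ± 0.0010 and Homer2 at −0.096 ± 0.12 in the strain pair. The 7 genes of inhibitory synapses had medians of −0.0094 in the diet pair and 0.015 in the strain pair. Gphn, the gephyrin gene, was at −0.091 ± 0.012 in the strain pair and Nlgn3, a synaptic adhesion gene, at 0.12 ± 0.09 in the diet pair.

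Among the transporters 1 gene passed the 1.2-fold rule, in the strain pair, where 2.81% of all genes were higher and 1.71% lower. The 15 transporter genes had medians of −0.031 in the diet pair and 0.037 in the strain pair. Slc6a13, a GABA transporter of the meninges and blood vessels, was higher in SAMP8 LSO than in SAMR1 LSO, with ratios of 0.31 and 0.56 and a mean of 0.44 ± 0.18 or 1.35-fold, beside endothelial and mural markers at a median of 0.40, 9 of 10 above 0 on both arrays with a range of −0.14 to 0.96, whose part in it was not tested. Slc6a13 in the diet pair was at −0.22 ± 0.14, and Slc1a6, the glutamate transporter of Purkinje cells, at −0.23 ± 0.15, neither past the rule. Slc1a2, the main astrocyte glutamate transporter, was at 0.13 ± 0.02 in the strain pair. The 7 genes for synthesis and breakdown had medians of −0.018 and −0.015 in the diet and strain pairs, with Aldh5a1, which finishes GABA breakdown, at 0.16 ± 0.01 and Gad1, which makes GABA, at −0.15 ± 0.17 in the strain pair. Gls2, a glutaminase gene, was at −0.018 ± 0.023 in the diet pair.

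Kinases and phosphatases that act on the receptors had medians of 0.014 in the diet pair and −0.061 in the strain pair over 12 genes, with 0 past 1.2-fold in both. Camk2a and Camk2b, the CaM kinase genes of synaptic plasticity, were at −0.22 ± 0.26 and −0.16 ± 0.01 in the strain pair. Camk2d, another gene of that kinase family, was at 0.040 ± 0.0050 in the diet pair. These lists, too, were written with earlier results known.

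Different probes of a gene set a further limit. Of the 10 members with several probes, 6 had probes of the same sign in the diet pair and 6 in the strain pair, and over all genes with several probes the shares were 58.6% and 59.4%. The median span between a member's probes was 0.061 in the diet pair, beside 0.049 over 4957 genes, and 0.13 in the strain pair, beside 0.070 over 4966 genes. The widest spans were 0.24 for Grm7 in the diet pair and 0.31 for Gria4 in the strain pair, larger than most of the members' ratios themselves.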

How the data were processed

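Total RNA of whole mouse brain was hybridised in 2 dyes to 4 Agilent arrays on 1 slide, per the labels' protocols, so no slide batch could be compared. The deposited scanner files hold spot intensities, background and flags from Agilent Feature Extraction 11.0.1.1, per the submitters' processing notes. The deposited series table holds log2 ratios of red over green processed signal (largest difference from the scanner files 5e-09) and served as a check.

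From these, median spot intensities were corrected with normexp and an offset of 50, which pulls ratios of dim probes towards 0, and normalized by loess within each array, with control spots at weight 0 (limma 3.58.1, R 4.3.3). Spots marked as outliers, 105 to 123 per array, were left out, and spots of a probe were averaged. Ratios were turned for the dye and the 2 arrays of a pair averaged as 1 replicate. Intensities printed for an RNA come from an array's normalized mean and ratio. For these intensities only, the mean log2 intensities of all arrays of both pairs were first quantile-normalized together, with the ratios left as they were.

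Of 41174 probes, 23374 were named by accession and 10 by symbol through the RefSeq table of GRCm38.p6, used here for names, gene neighbours and promoters, because the array headers name another build, and 17790 kept no gene name. A gene was represented by its probe of highest mean log2 intensity and counted as measured where at least 1 RNA of the pair was well above background on both arrays. A gene was called where both arrays passed 1.5-fold, or 1.2-fold, with the same sign. No test was run, because each group was 1 RNA. The number of arrays limits the precision. Since the smaller of both array ratios must pass, a gene whose difference lies near a fold can miss it, and 0 calls do not show that no member differed. The calls were tested on simulated data.

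All listed receptor genes are named with every probe. Of the other lists, the rule allowed up to 4 genes past 1.5-fold to be named, or otherwise up to the 2 largest of one sign on both arrays. Some of the genes so chosen are not reported here. The members and lists were chosen with earlier results of these data known. Alternatives were processed signals, median centring, an offset of 16, other filters on dim probes, the median of a gene's probes, outlier spots kept and either array left out.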

Additional observations from a re-analysis of the deposited data

How the results depend on the processing

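No paired analysis was possible because the result comes from no test and the arrays of a pair share their RNAs. The counts of members past each fold were the same, and their medians moved by less than the spread between arrays, with Feature Extraction's processed signals, an offset of 16, both filters on dim probes and outlier spots kept. Processed signals gave 6 members above and 5 below 0 on both diet arrays, against 8 and 5, and 8 above and 8 below on both strain arrays, against 8 and 4. Median centring without loess gave 1 member at least 1.2-fold higher in the diet pair (Grin2b), a members' median of 0.154 in the diet pair and −0.0397 in the strain pair, with 19 members above and 1 below 0 on both diet arrays. The median of a gene's probes on each array gave 0 members at least 1.2-fold higher in the strain pair and a strain median of 0.00865. With 1 array left out, dye preference is not cancelled. The diet pair then had 1 member at least 1.2-fold higher (Gabra2 or Grm3) and 1 to 3 lower (Gabra6, or Gria4, Grik2 and Grin2c), and the strain pair 2 higher (Gria4 with Gabra2 or Grm7) and 0 to 2 lower (Grin2b and Grm3). The members' median ran from −0.00826 to 0.0241 in the diet pair and from 0.0256 to 0.0285 in the strain pair. Of 504 values for single genes, 34 moved by more than their spread between arrays. Many of the others could not move. Leaving out an array shifts a gene's mean by less than that spread. The filters on dim probes and keeping outlier spots could not change a member, as all member probes were above background and none was an outlier. Gria4 in the strain pair, the one member past 1.2-fold in the main setting, kept its sign under every setting. Under the settings with both arrays, 20 of 28 members kept their sign in the diet pair and 22 of 28 in the strain pair. Over all genes, processed signals gave 253 higher and 265 lower genes at 1.2-fold in the diet pair, against 46 and 29, and 1140 and 1022 in the strain pair, against 757 and 462. At 1.5-fold they gave 62 and 41 in the diet pair, against 15 and 8, and 467 and 290 in the strain pair, against 261 and 133. Median centring gave 205 higher and 42 lower at 1.2-fold in the diet pair. The cause was not tested.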

Other observations

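Several of the GABA-A receptor genes lie in clusters in the RefSeq table, and their values are given by cluster. On chromosome 5 Gabrg1, Gabra2, Gabra4 and Gabrb1 had diet ratios of −0.016, 0.044, 0.019 and 0.048 and strain ratios of −0.022, 0.084, 0.0022 and −0.028. On chromosome 7 Gabrg3 and Gabra5 had diet ratios of 0.041 and 0.053 and strain ratios of −0.059 and −0.027. On chromosome 11 Gabra6 and its neighbour Gabrb2 had diet ratios of −0.23 and 0.024 and strain ratios of 0.048 and −0.0098. Under centring without loess the diet ratios of Gabra6 and Gabrb2 were −0.036 and 0.16.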
